A study of Mus musculus with 3 samples.

Results

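The BCL2 family decides whether a cell opens its mitochondrial outer membrane and dies by apoptosis, and 10 of its genes were followed here across the passages of a mouse embryonic stem cell culture. They were chosen by name, as BCL2 family genes outside the usual targets of the tumour suppressor p53, and all 10 were found among the 50043 gene IDs of the deposited expression table. On the pro-death side are 6 genes, the 4 BH3-only genes Bcl2l11, Bad, Bid and Bik and the 2 effector genes Bak1 and Bok. On the pro-survival side are the 4 genes Bcl2, Bcl2l1, Bcl2l2 and Mcl1.

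RNA was sequenced from KH2 cells, an embryonic stem cell line built for inducible genetics, here with an inducible knockout of Pold3. The Pold3 protein is an accessory part of polymerase delta, which copies the lagging strand of DNA. Passages P0, P1 and P2 gave 1 library each, all with the same genotype, and the study asks how the transcriptome differs between passages. The labels give neither the inducing agent nor the time of induction relative to P0 nor the number of clones. With 1 library per passage no difference below has a replicate check, so no p-value is given. Intervals are 95% intervals that cover counting error only, and they compare libraries, not conditions. In bulk RNA, fewer cells of a type and less RNA per cell cannot be told apart.

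The totals behind the values ran from 18059914 reads at P1 to 23213528 at P0. Pold3 measured 49.2 FPKM at P0, 13.0 at P1 and 11.6 at P2 (FPKM counts fragments per kilobase of a gene, relative to the library total). All 5 embryonic stem cell markers examined, Pou5f1, Nanog, Sox2, Zfp42 and Esrrb, were at 118 FPKM or above in every library. None was called under the rule given below, but 4 of the 5 were lower at P2 than at P0, with a median difference of log2(FPKM + 1) of -0.27. Esrrb differed most, at 118 FPKM at P2 against 221 at P0, while Nanog was higher at P2. Of 10 markers of fibroblasts, which often serve as feeders in such cultures, 3 reached FPKM 1 in each library and Postn and S100a4 had no reads in any.

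Proteins of the family act against each other by binding. Pro-survival proteins hold the others in check through a groove that takes up a short helix, the BH3 domain. BH3-only proteins are sensors of stress that fill this groove or activate the effectors, and activated effectors form the pores that release cytochrome c. Much of this control lies in protein turnover, phosphorylation and cleavage, which transcript levels do not show. Mouse embryonic stem cells are known for entering apoptosis readily after DNA damage.

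Among the BH3-only genes Bad differed most between passages. BAD is a sensitizer that binds BCL-XL, BCL-2 and BCL-W, and when phosphorylated it is kept in the cytosol by 14-3-3 proteins. Bad measured 15.1 FPKM at P0 (316 reads), 19.5 at P1 (318 reads) and 31.5 at P2 (637 reads). The level was thus higher in each later library, and the 3 counting intervals, 13.5 to 16.9, 17.4 to 21.8 and 29.1 to 34.1 FPKM, did not overlap. Bad was 2.09-fold higher at P2 than at P0 (interval 1.82 to 2.40). At P1 it was 1.29-fold above P0 (interval 1.10 to 1.52), and from P1 to P2 the ratio was 1.61 (interval 1.41 to 1.85).

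A gene was called changed when log2(FPKM + 1) differed by at least 1, among genes that reached FPKM 1 in at least 1 of the libraries compared. This scale understates differences of low genes. Under this rule Bad rose at P2 against P0, with a difference of 1.02, just past the limit. It was the 1 member called of 9 compared, where 6.72% of all 13472 genes compared were called higher and 1.16% lower. That share leaves a count of 1 member close to the background. Bad's difference was larger than that of 93.5% of the genes compared. It came to 0.97 under median-of-ratios scaling and 0.93 under quantile normalization, both short of the limit. At P1 against P0 none of 9 members was called, beside 4.12% of 13288 genes called higher and 0.549% lower. Between P2 and P1 none of 9 was called either, beside 0.780% higher and 0.883% lower of 13585 genes. Bad's difference of 0.66 between P2 and P1 exceeded that of 97.3% of the genes.

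**Figure D1:**
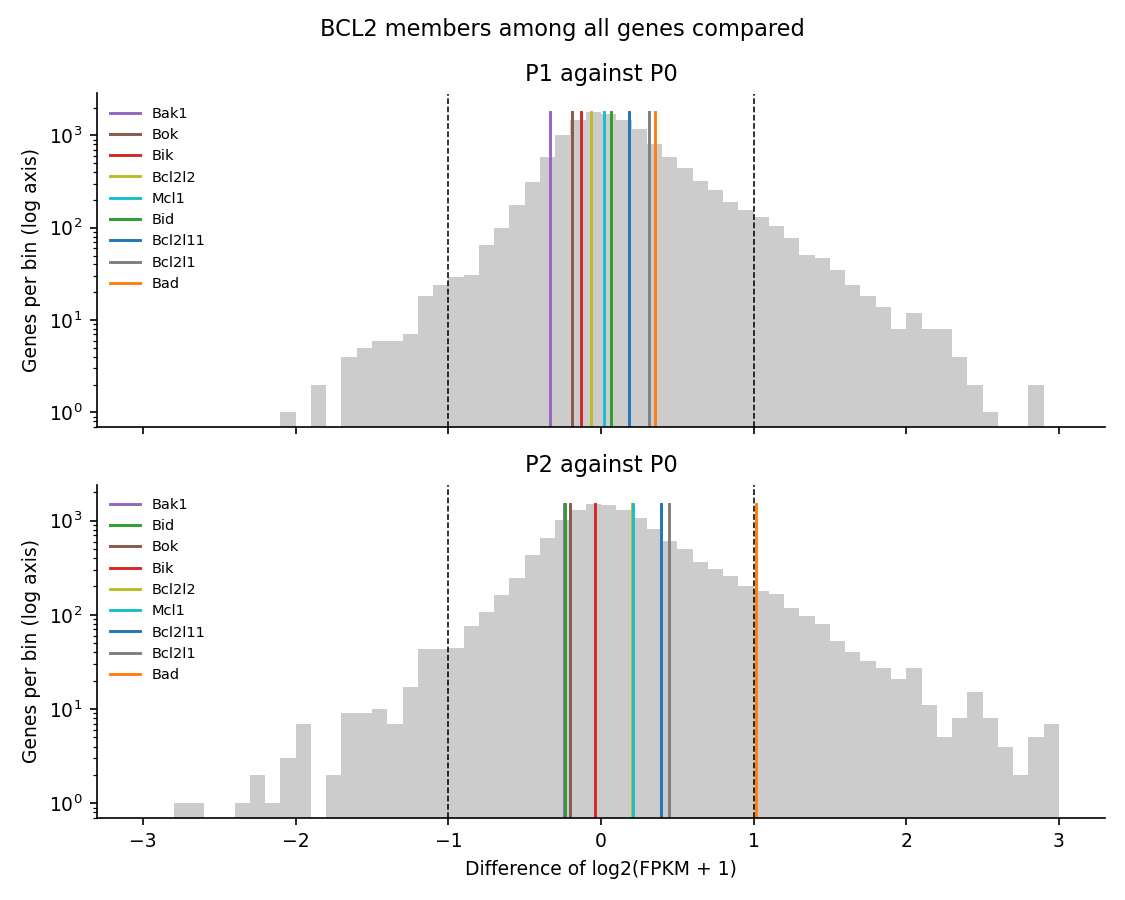
Genes per bin (log axis) by difference of log2(FPKM + 1) at P1 against P0 (top) and P2 against P0 (bottom), with the 9 members that could be compared as coloured lines; dashed lines mark the limit of 1 and the end bins also hold values beyond them. The members sit in the body of the distribution except Bad at P2, which lies on the upper limit.

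Bad shares exon sequence with Gpr137, a gene on the opposite strand, and no source used here gives the strand of the libraries, so reads of the pair may not be fully separated. Gpr137 measured 5.65 FPKM at P0, 4.33 at P1 and 6.23 at P2, and its ratio of P2 to P0 was 1.10 (interval 0.913 to 1.33). Gpr137 lay lowest at P1, where Bad lay in between. The part of Gpr137 reads in the values of Bad was not tested. Some markers of other cells also differed in the later libraries. Of the 10 fibroblast markers, Col1a1 and Thy1 rose to 7.09 and 11.0 FPKM at P2, against 1.98 and 4.21 at P0. The third that could be compared, Fn1, was at 110 FPKM at P2 against 189 at P0 and carried most of the list's sum, which was 129 FPKM at P2 against 196 at P0. Without Fn1 the sum was 19.2 FPKM at P2 against 6.98 at P0. The other 7 fibroblast markers stayed under FPKM 1, with at most 41 reads in any library. Of 5 blood cell markers, Cd68 and Laptm5 rose to 30.7 and 203 FPKM at P2, against 7.44 and 86.1 at P0. The summed blood cell list, most of it Laptm5 alone, was 235 FPKM at P2 against 94.6 at P0. Cd3e had 46 reads at P2 against 28 at P0 and 15 at P1, Ptprc at most 17 in any library, and Csf1r 9 at P2 against 1 at P0. The part of these cell markers, those of embryonic stem cells included, in the difference of Bad was not tested.

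Bcl2l11 encodes BIM, a BH3-only protein that binds every pro-survival member and can activate the effectors. It measured 24.6 FPKM at P0 (1213 reads), 28.0 at P1 (1077 reads) and 32.6 at P2 (1553 reads), again higher in each later library. The ratio was 1.33 for P2 against P0 (interval 1.23 to 1.43), 1.14 for P1 against P0 (interval 1.05 to 1.24) and 1.16 for P2 against P1 (interval 1.07 to 1.26). On the log2(FPKM + 1) scale the difference of 0.39 at P2 was within the limit and exceeded that of 76.3% of genes.

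Bid took the other direction at the second step. BID links death receptors to mitochondria after cleavage by caspase-8. The gene measured 28.5 FPKM at P0 (815 reads), 29.9 at P1 (665 reads) and 24.1 at P2 (664 reads). The ratio of P2 to P1 was 0.805 (interval 0.722 to 0.898), while that of P1 to P0 was 1.05 (interval 0.945 to 1.16). Bid shares exon sequence with Bcl2l13, on the opposite strand, which was at 29.9, 32.2 and 32.2 FPKM. Bik, whose protein sits mainly at the endoplasmic reticulum, was low, at 3.24 FPKM at P0, 2.88 at P1 and 3.12 at P2 from 71, 49 and 66 reads. Its intervals all overlapped, and the ratio of P2 to P0, 0.963, had an interval of 0.678 to 1.37.

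The order of the BH3-only genes differed between libraries. At P0 the order was Bid, Bcl2l11, Bad and Bik, with no overlap between neighbours' counting intervals. At P2 it was Bcl2l11, Bad, Bid and Bik, and the intervals of Bcl2l11 and Bad overlapped. At P1 Bid and Bcl2l11 could not be separated.

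Both effector genes were lower in the later libraries. BAK1 resides on mitochondria, where it forms the pore once activated, and BOK is a relative found largely at the endoplasmic reticulum. Bak1 measured 45.9 FPKM at P0 (1385 reads), 36.2 at P1 (850 reads) and 38.6 at P2 (1124 reads), so that P0 alone stood high. The ratio was 0.789 for P1 against P0 (interval 0.723 to 0.860) and 0.841 for P2 against P0 (interval 0.776 to 0.910). Bok measured 43.4 FPKM at P0 (882 reads), 38.0 at P1 (601 reads) and 37.6 at P2 (737 reads). Its ratio was 0.876 for P1 against P0 (interval 0.788 to 0.973) and 0.866 for P2 against P0 (interval 0.784 to 0.956). For both genes the interval of P2 against P1 included 1. The log2(FPKM + 1) differences of Bak1 and Bok, -0.24 and -0.20 at P2 against P0, were within the limit. In the order of levels the pair could not be separated from each other in any library. Bak1 shares exon sequence with Ggnbp1 on the opposite strand, which was at 2.34, 3.55 and 2.86 FPKM.

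Mcl1 carried most of the pro-survival transcript. MCL1 is a short-lived protein that restrains BAK1 and BIM and is needed in the early embryo. The gene measured 320 FPKM at P0 (15895 reads), 325 at P1 (12533 reads) and 371 at P2 (17778 reads), above 97.3% of the genes that reached FPKM 1 at P0 and 97.8% at P2. It was thus level over the first step and higher at P2, with a ratio of P2 to P0 of 1.16 (interval 1.13 to 1.18). The ratio of P1 to P0 was 1.01 (interval 0.990 to 1.04), and its log2(FPKM + 1) difference of 0.02 was -0.02 under median-of-ratios scaling and -0.01 under quantile normalization. Mcl1 made up 86.7% of the summed FPKM of the pro-survival genes at P0, 84.6% at P1 and 85.0% at P2.

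Bcl2l1 encodes BCL-XL, a partner of BAD and BAK1. It measured 41.7 FPKM at P0 (1427 reads), 52.1 at P1 (1385 reads) and 57.3 at P2 (1891 reads), higher in each later library with counting intervals that overlapped only between P1 and P2. The ratio was 1.37 for P2 against P0 (interval 1.28 to 1.47), 1.25 for P1 against P0 (interval 1.16 to 1.34) and 1.10 for P2 against P1 (interval 1.03 to 1.18). Its short splice form, BCL-XS, promotes death in human cells, and values per gene do not separate the forms. At P0 Bcl2l1 could not be separated from Bok or Bak1 in level, while at P1 and P2 it stood above both effector genes.

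Bcl2l2, which encodes BCL-W, measured 6.88 FPKM at P0 (336 reads), 6.53 at P1 (248 reads) and 8.08 at P2 (381 reads), highest at P2 with a ratio to P1 of 1.24 (interval 1.05 to 1.46). A readthrough gene over Bcl2l2, Gm20521, was listed at 0 in all libraries. Bcl2, the founding member of the family, was lowest of the 10 in every library, at 0.421 FPKM at P0, 0.276 at P1 and 0.303 at P2 from 49, 25 and 34 reads. It stayed under FPKM 1 throughout and so was not compared under the rule. The ratio of P2 to P0 for Bcl2 was 0.719 with an interval of 0.450 to 1.14, so a difference was not detectable at this depth.

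**Figure D2:**
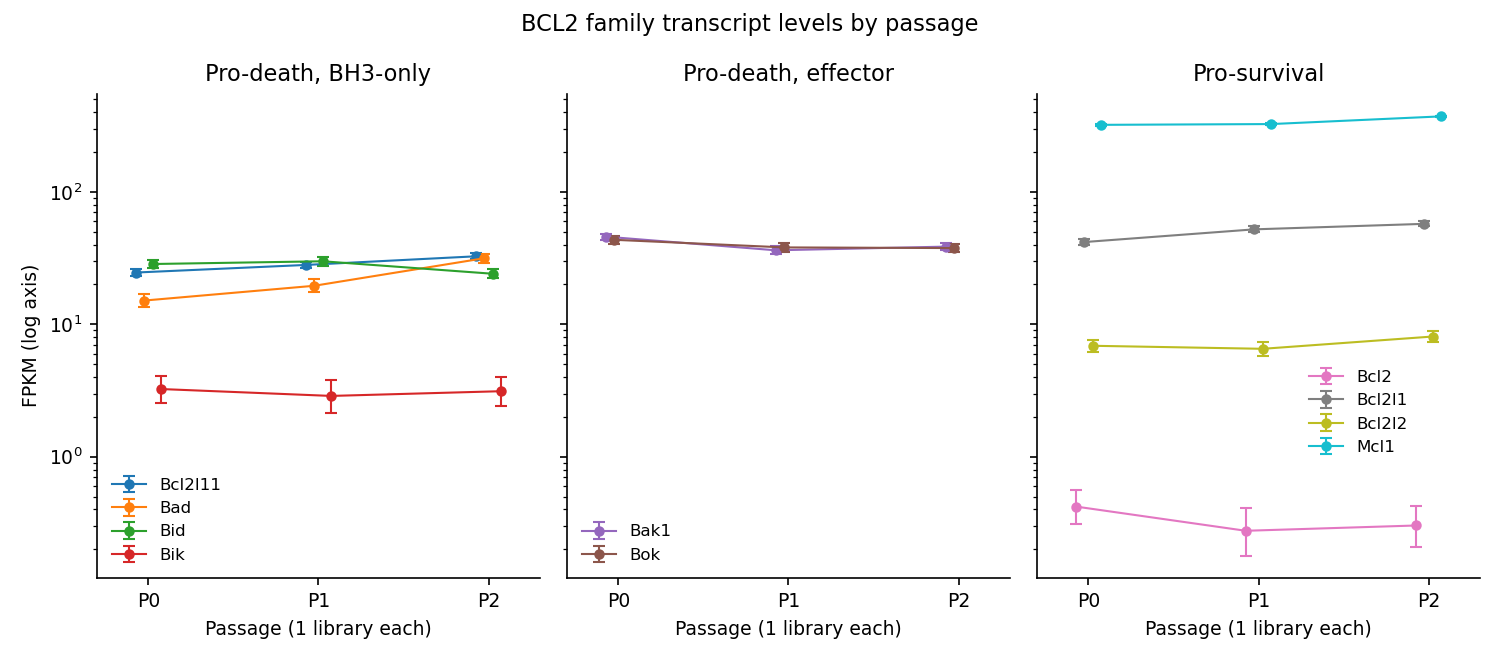
FPKM (log axis) of the 10 members at P0, P1 and P2, 1 library each, by role; bars are 95% intervals for counting error. Mcl1 at 320 to 371 FPKM lies far above every other member and Bcl2, under 1 FPKM, far below.

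**Figure D3:**
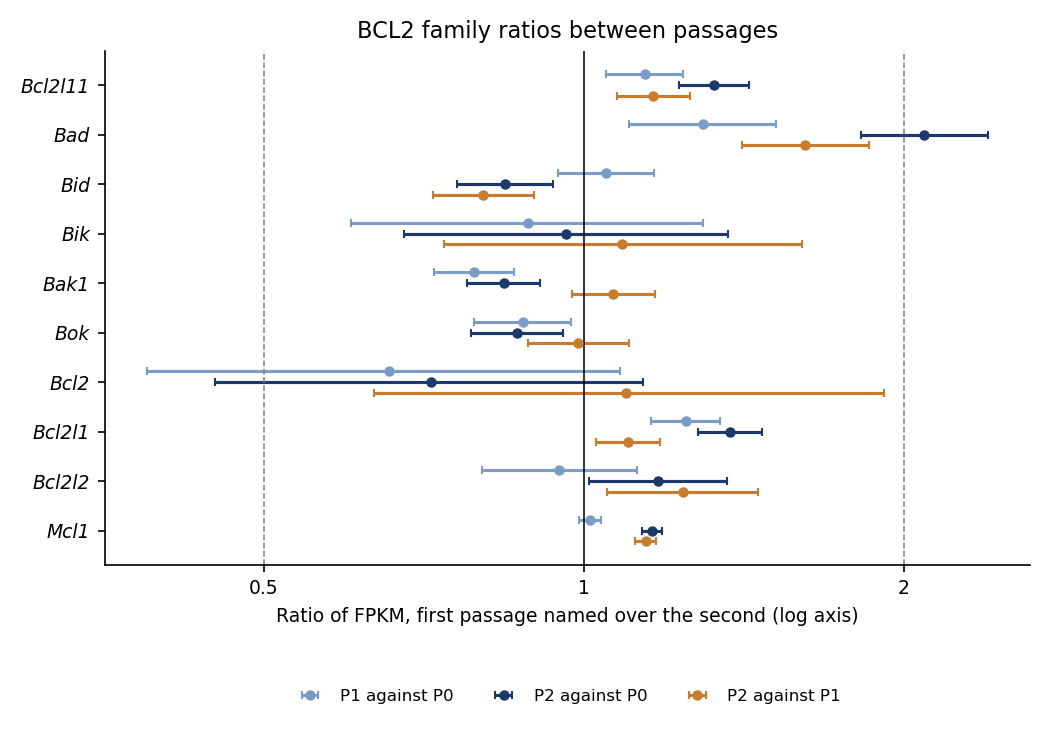
Ratios of FPKM between passages for each member (log axis), with exact 95% intervals for counting error; the solid line marks no difference and the dashed lines 2-fold. Bad at P2 against P0 is the 1 point beyond 2-fold, and its interval spans that line.

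Counted by interval, at P2 against P0 the ratio lay above 1 with its interval for 5 members (Bcl2l11, Bad, Bcl2l1, Bcl2l2 and Mcl1) and below 1 for 3 (Bid, Bak1 and Bok), among the 9 compared. Of all genes compared, 39.6% lay above 1 in this way and 25.7% below, so intervals that leave out 1 were common in this table. At P1 against P0 the members' counts were 3 and 2, beside 34.5% and 22.6% of genes. Between P2 and P1 they were 5 and 1, beside 24.1% and 18.9%. Of the 3 comparisons, those with P0 share 1 library, so their values are not independent. Under the 3 other scalings tried, each member kept the sign of its difference in each comparison except Mcl1 at P1 against P0, as given above.

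Bad, Bcl2l11 and Bcl2l1 were the 3 members whose ratio lay above 1, with its interval, at both steps, and the sequence upstream of their outermost annotated start is shown to set these members side by side. RefSeq promoter entries on build GRCm38.p6 were matched by symbol for 9 of the 10 members (13 starts), while the deposited table names build mm9, so these coordinates belong to the sequences alone. The 250 bases before the start lay on the plus strand at chr19:6941611-6941860 for Bad and chr2:128125788-128126037 for Bcl2l11, and on the minus strand at chr2:152831729-152831978 for Bcl2l1. Capitals mark the GC box (GGGCGG), the CCAAT box (CCAAT) and the FOXO motif (TGTTTAC), each searched on both strands.
Bad: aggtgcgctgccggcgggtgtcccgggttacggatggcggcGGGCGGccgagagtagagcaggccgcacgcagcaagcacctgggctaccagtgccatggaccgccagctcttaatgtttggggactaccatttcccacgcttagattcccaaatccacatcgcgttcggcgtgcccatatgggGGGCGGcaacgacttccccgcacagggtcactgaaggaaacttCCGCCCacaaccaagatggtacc
Bcl2l11: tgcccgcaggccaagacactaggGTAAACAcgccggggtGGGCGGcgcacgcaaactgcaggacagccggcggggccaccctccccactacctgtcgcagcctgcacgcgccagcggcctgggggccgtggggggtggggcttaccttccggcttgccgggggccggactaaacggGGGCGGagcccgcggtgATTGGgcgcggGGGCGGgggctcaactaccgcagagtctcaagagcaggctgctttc
Bcl2l1: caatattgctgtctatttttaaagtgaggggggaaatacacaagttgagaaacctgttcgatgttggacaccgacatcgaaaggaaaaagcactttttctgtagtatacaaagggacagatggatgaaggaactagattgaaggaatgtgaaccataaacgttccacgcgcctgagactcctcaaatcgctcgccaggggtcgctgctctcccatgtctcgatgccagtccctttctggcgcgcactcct
The windows of Bad and Bcl2l11 each held 3 GC boxes, and that of Bcl2l1 held none. A GC box was found in 8 of the 13 windows of the members and in 32.7% of all 32841 windows of this length. Bcl2l11 also held 1 CCAAT box, found in 33.9% of windows, and 1 FOXO motif, found in 3.17%. FOXO factors are known activators of Bcl2l11. The p53 decamer, found in 7.13% of windows, and the E-box CACGTG, found in 6.02%, matched none of the 13 windows of the members. A match describes letters in these windows only. Bad had 21 CpG dinucleotides, Bcl2l11 24 and Bcl2l1 12, where the median window had 6. All 3 windows thus held more CpG than the median, while none of the motifs searched was common to all 3. The CpG trait was not particular to these members. The outermost windows of Bcl2 (36), Mcl1 (26), Bid (18), Bok (12), Bcl2l2 (9) and Bak1 (8) also exceeded the median.

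Set against each other at P2 against P0, the pro-death side was nearly level while the pro-survival side was higher. Summed FPKM of the pro-death genes was 161 at P0, 155 at P1 and 167 at P2, and that of the pro-survival genes was 369, 383 and 437. The pro-death sum at P2 was 1.04 times that at P0 (interval 0.999 to 1.09) and the pro-survival sum 1.18 times (interval 1.16 to 1.21). The ratio of pro-death to pro-survival FPKM was 0.435 at P0 (interval 0.421 to 0.450), 0.403 at P1 (0.388 to 0.419) and 0.383 at P2 (0.371 to 0.396). At P2 this ratio was 0.881 times that at P0 (interval 0.841 to 0.923), a small difference that has no replicate check. From P1 to P2 both sums were higher, pro-death 1.08 times (interval 1.04 to 1.13) and pro-survival 1.14 times (interval 1.11 to 1.16). The ratio at P2 was 0.951 times that at P1, with an interval from 0.904 that included 1, so that step was not resolved. Intervals on sums and on their ratios are approximate and again cover counting error only. The sums weigh transcripts per length and say nothing of protein.

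Among the pro-death members the BH3-only sum was higher and the effector sum, of Bak1 and Bok alone, lower at the later passages. Bax, an effector gene outside the members, was at 257 FPKM at P0, 277 at P1 and 275 at P2. It was thus above both and not lower later, so the lower effector values below do not extend to it. BH3-only genes among the members summed to 71.4 FPKM at P0, 80.3 at P1 and 91.3 at P2, and effector genes among them to 89.3, 74.2 and 76.2. The ratio of BH3-only to effector FPKM was 0.800 at P0, 1.08 at P1 and 1.20 at P2, so that at P2 it was 1.50 times that at P0 (interval 1.38 to 1.63). Without Bad the 3 other BH3-only genes summed to 56.3, 60.8 and 59.8 FPKM. Their ratio was 1.08 for P1 against P0 (interval 1.01 to 1.15) and 1.06 for P2 against P0 (interval 0.998 to 1.13), where the ratios with Bad were 1.12 and 1.28. Bak1 and Bok summed, per pro-survival FPKM, stood at 0.242 at P0, 0.194 at P1 and 0.174 at P2. For partners known to bind, the ratio of Bad to Bcl2l1 was 0.362, 0.375 and 0.550, that of Bcl2l11 to Mcl1 was 0.0767, 0.0864 and 0.0878, and that of Bak1 to Mcl1 was 0.143, 0.111 and 0.104. Bad thus stood higher against Bcl2l1 at P2 alone, while Bak1 was lower against Mcl1 in both later libraries.

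**Figure D4:**
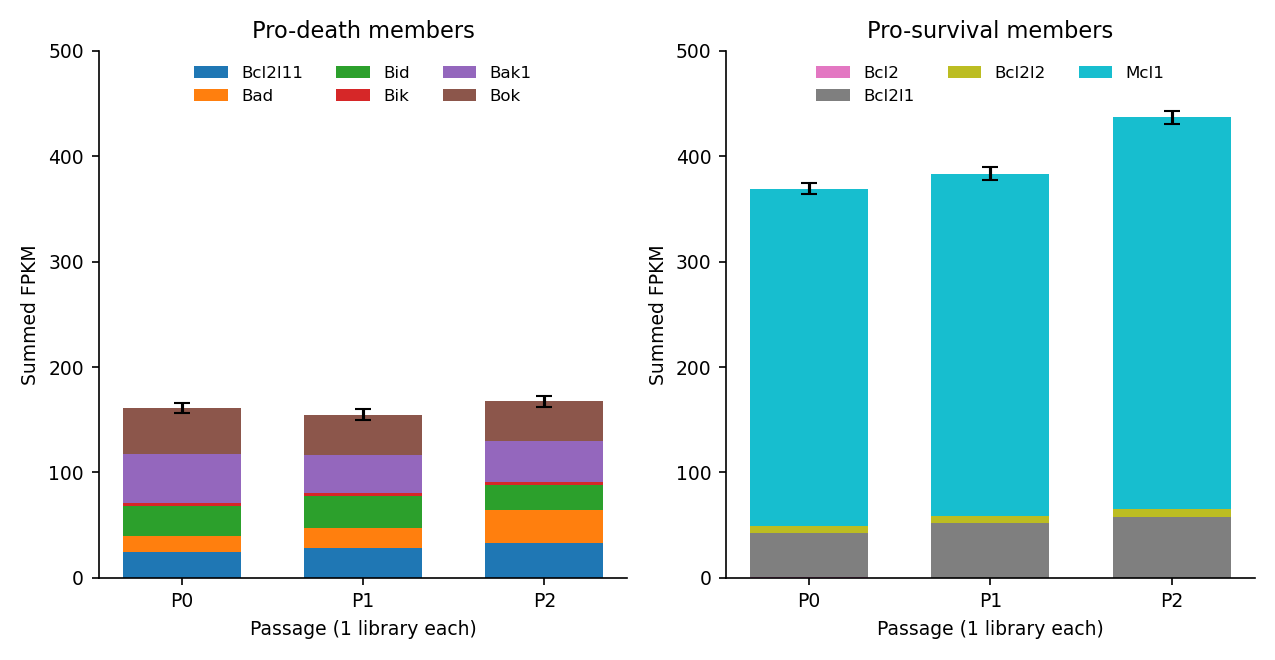
Summed FPKM of the 6 pro-death genes (left) and the 4 pro-survival genes (right) at P0, P1 and P2, 1 library each, stacked by member; bars on top are approximate 95% intervals for counting error. The pro-death sum stays between 155 and 167 while the pro-survival sum, mostly Mcl1, reaches 437 at P2.

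As medians of log2(FPKM + 1) differences, at P2 against P0 the 6 pro-death genes had -0.12 and the 3 pro-survival genes that could be compared 0.21, beside 0.07 for all genes compared. At P1 against P0 the medians were -0.03 and 0.02, beside 0.06. Between P2 and P1 they were 0.09 and 0.19, beside 0.02. The pro-death median at P2 against P0 was -0.20 with a floor of FPKM 5 and -0.26 under quantile normalization, and at P1 against P0 it was 0.07 with that floor, with the sign turned.

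The balance depends on which genes are counted, since 3 relatives known as p53 targets were left out of the members by choice. Other relatives, given below, were not among the members either. Bax, the second main effector, measured 257 FPKM at P0, 277 at P1 and 275 at P2, Bbc3, which encodes PUMA, 77.9, 113 and 110, and Pmaip1, which encodes NOXA, 38.9, 62.4 and 76.2. None of these was called, and Pmaip1 came closest with a log2(FPKM + 1) difference of 0.95 at P2 against P0. With all 3 on the pro-death side, the ratio of pro-death to pro-survival FPKM was 1.45 at P0, 1.58 at P1 and 1.44 at P2. It was then 1.09 times that of P0 at P1 and 0.995 times at P2, so the lower ratio at both later passages was not seen with these genes included.

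Of 10 other relatives of the family, 6 could be compared at P2 against P0 and none was called, with a median of -0.13. Bcl2l14 rose at P1, with 3.64 FPKM against 1.30 at P0 (100 reads against 46), and was at 3.14 at P2, where its difference of 0.85 was within the limit. Hrk, a BH3-only gene best known in neurons, had 47 reads at P1 and 50 at P2, against 151 at P0, and was 2.91-fold lower at P2 than at P0. At 0.740 FPKM at P2 against 2.16 at P0, its log2(FPKM + 1) difference of -0.86 was within the limit. Bcl2l12 and Bcl2l10 differed by -0.44 and 0.41. Bmf, another BH3-only gene, was lower in both later libraries. Its ratio to P0 was 0.666 at P1 (interval 0.566 to 0.781) and 0.762 at P2 (interval 0.659 to 0.880). The higher BH3-only sum of the members thus does not extend to Bmf or Hrk, while Bbc3 and Pmaip1, given above, were higher. Bcl2a1a had 2 reads in all and Bcl2a1b and Bcl2a1d none, and these are near-identical copies whose reads cannot be assigned with certainty.

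Downstream of the family, Apaf1 was the gene called among 12 of the apoptosome and caspases, which had a median of 0.38 at P2 against P0. With 6.72% of all genes compared called higher, a count of 1 in 12 lies close to the background. APAF1 assembles with cytochrome c into the platform that activates caspase-9, and its gene, a known p53 target, rose at both P1 and P2. Apaf1 measured 20.3 FPKM at P0, 46.2 at P1 and 53.6 at P2 and was 2.64-fold above P0 at P2 (interval 2.49 to 2.81). Endog, Cycs and Htra2, which encode proteins released from mitochondria, differed by 0.75, 0.49 and 0.46. Diablo and Aifm1 of the same list differed by 0.06 and 0.01, and their ratio intervals included 1, so a rise was not common to the list. None of the IAP genes, which encode inhibitors of caspases or their relatives, was called at P2 among 5 compared, with a median of -0.03. Birc6 differed by -0.45, Xiap by 0.23 and Birc2 by -0.07, and Birc7 had 23 reads at P2 against 13 at P0.

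Among 12 genes for 14-3-3 proteins and kinases that act on BAD, Sfn was called, and the list's median at P2 against P0 was -0.01. A count of 1 in 12 is again close to the 6.72% of all genes called higher. Sfn, which encodes 14-3-3 sigma and is a known p53 target, rose to 465 FPKM at P1 and 608 at P2, against 100.3 at P0, 6.07-fold at P2 (interval 5.86 to 6.28). The kinase gene Pim3 differed by -0.67, and the 14-3-3 genes Ywhae and Ywhaz by -0.22 each. Bad and Sfn were therefore both called higher at P2, but Sfn had risen by P1, where Bad was within the limit.

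**Figure D5:**
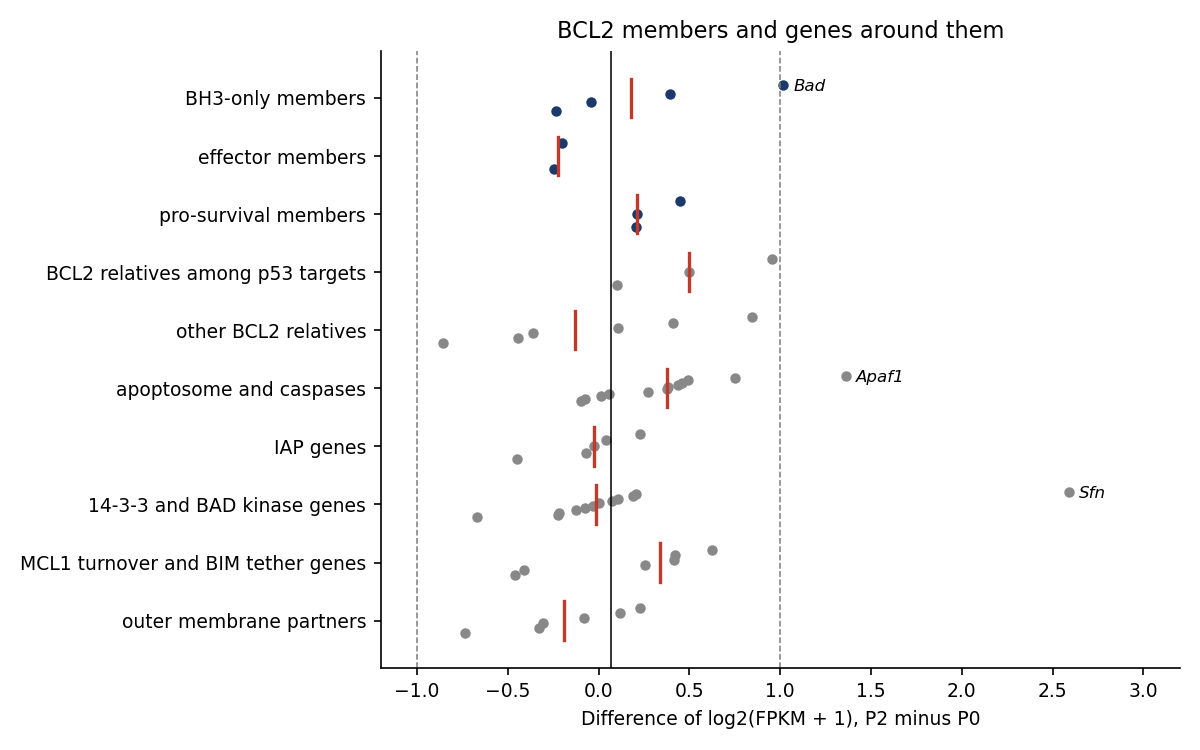
Differences of log2(FPKM + 1), P2 minus P0, for the members (blue) and the genes around them (grey), 1 point per gene that could be compared; red bars are medians, the solid line is the median of all genes, 0.07, and the dashed lines the limit of 1. Bad, Apaf1 and Sfn are the 3 genes past the limit, beside 6.72% of all 13472 genes compared called higher and 1.16% lower. Under median-of-ratios scaling and quantile normalization Bad was short of the limit.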

How the data were processed

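The authors deposited 1 table of FPKM values for 50043 gene IDs, with a column for each of the 3 libraries. Per the submitters' processing notes, the tools included TopHat2 2.0.9 and Bowtie2 2.0.6 and the build was mm9. No source used here gives the counting program, its annotation or the strand. Symbols came from GENCODE release M21, which named 49326 IDs. Reads were recovered by searching for library totals and gene lengths that make FPKM whole reads, which held for 26288 of 26291 IDs above 0 within a relative tolerance of 1e-09. A common factor of reads and length is not resolved for each gene. The multiple nearest to the mean M21 transcript length was used, which for all 10 members was the smallest length possible.

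Values were compared as log2(FPKM + 1) on the whole table, with a floor of FPKM 1 and a limit of 1. Named genes are all members, Pold3, the p53-target relatives and, of each other list, the called genes and the largest P2 against P0 differences up to 4. Other cell markers, Bmf, Diablo, Aifm1, Huwe1, Vdac3 and Mtch2 are named besides, to describe their lists. Intervals on FPKM are exact Poisson, those on ratios exact conditional (Clopper-Pearson) and those on sums log-normal, all at 95%. They cover counting error only, and PCR copies are not separate molecules. The members and lists were chosen with earlier results of these data known. The steps were tested on simulated data. Python 3.11.15 was used with pandas 2.3.3, numpy 2.4.6, matplotlib 3.10.9 and scipy 1.17.1.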

Additional observations from a re-analysis of the deposited data

How the results depend on the processing

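The pseudocount was set to 0.1, the floor was removed or raised to FPKM 5, and FPKM was rescaled by median of ratios, to 1000000 per library, or by quantile normalization. The last shifted the median of all genes by -0.12 at P2 against P0. The count of members higher at P2 against P0 was 0 under median-of-ratios scaling and under quantile normalization, against 1 (Bad), and all other counts of members called were the same. The median pro-survival difference at P1 against P0 was -0.0234 with no floor and -0.0230 under median-of-ratios scaling, against 0.0193. At P2 against P0 it was 0.16 under median-of-ratios scaling, against 0.21. The median pro-death difference ranged from -0.12 to 0.07 at P1 against P0 and from -0.26 to -0.12 at P2 against P0, with the values at the higher floor and under quantile normalization given above. These lay between the medians of the single members' lower and upper counting bounds, which are not an interval of the median itself. The floor of FPKM 5 also left out Bik, so the medians there come from fewer genes. The level of the pro-death to pro-survival ratio depends on the genes summed. Without Mcl1 and Bak1, the most abundant on each side, it was 2.34 at P0, 2.01 at P1 and 1.96 at P2. With Bax, Bbc3 and Pmaip1 it was 1.45, 1.58 and 1.44, and with geometric means on FPKM + 1 it was 1.10, 1.07 and 1.05. Without Bad, an alternative chosen after seeing the data, it was 0.394, 0.352 and 0.311. The ratio was lower at P1 and P2 than at P0 under each of these and under quantile normalization, except with Bax, Bbc3 and Pmaip1, where P1 was 1.09 times P0. Among single members, 2 of 159 values lay outside the counting interval, both for Mcl1 under median-of-ratios scaling (-0.02 at P1 and 0.16 at P2 against P0). The 159 include values with the floor moved, which leaves the difference of a single member as it is. Those values could not lie outside, so the tally overstates how much was tried. No paired analysis was possible because each passage had 1 library. Bcl2 and Bik rest on at most 71 reads a library, which limits what can be seen for them.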

Other observations

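Of 6 genes for MCL1 turnover and the tethering or induction of BIM, none was called at P2 against P0, and the median difference of log2(FPKM + 1) was 0.34. Fbxw7, which encodes a substrate receptor of a ubiquitin ligase for MCL1, measured 21.0 FPKM at P0, 29.5 at P1 and 32.9 at P2 and differed by 0.62 at P2 against P0. Usp9x, which encodes a deubiquitinase that stabilizes MCL1, measured 225, 175 and 163 FPKM, a difference of -0.46. Huwe1, another gene of MCL1 turnover, measured 307, 269 and 231 FPKM, a difference of -0.41, opposite in direction to Fbxw7. Of the 6 genes, 4 were higher and 2 lower at P2 than at P0. Dynll1, whose product holds BIM at the dynein motor, and Foxo3, which encodes a transcription factor that induces Bcl2l11, both differed by 0.42.

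Partners at the mitochondrial outer membrane, 6 genes, had a median of -0.19 with none called. Bnip3, a mitophagy receptor gene also induced by hypoxia, measured 16.5 FPKM at P0, 12.8 at P1 and 9.48 at P2 and differed by -0.74 at P2 against P0. Its relative Bnip3l differed by 0.23. Vdac1 and Vdac2, which encode the main outer membrane channels, of which VDAC2 binds BAK1, differed by -0.33 and -0.31, and Vdac2 measured 305, 262 and 247 FPKM. Bak1 and Vdac2 were both highest at P0, as were Vdac1, Vdac3 and Bnip3, while Mtch2 and Bnip3l were highest at P2. A link between Bak1 and Vdac2 was not tested.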
